A study of Mus musculus with 6 samples.

Results

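The genes described here carry arachidonic acid from membrane phospholipids into the lipoxygenase branch of eicosanoid synthesis. They are 10 of the 48709 genes in the count table of mouse fetal ovaries. They were chosen by symbol and not by a rule on their values, though earlier results of these data were known. The members are the phospholipases A2 Pla2g4a, Pla2g4b, Pla2g6 and Pla2g12a, the lipoxygenases Alox5, Alox12 and Alox15, and the leukotriene genes Alox5ap, Lta4h and Ltc4s. Ovaries of wild type CD1 embryos were collected at 13.5 days post coitum (dpc). The dams had been gavaged between 10.5 and 13.5 dpc, 4 times a day at intervals of 3 h, in the exposed group with acetaminophen (APAP, 30 mg/kg per day) alternating with ibuprofen (IBU, 15 mg/kg per day) and in the control group with ethanol, the diluent. Each group had 3 libraries of polyadenylated RNA, and each library was made from its own pool of embryonic gonads, so a library averages several embryos and the embryos of a pool share litters. The comparison of the groups asks whether these genes differed in ovaries of embryos exposed to a pair of cyclooxygenase inhibitors, and both the exposed and the control embryos had dams handled by repeated gavage.

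Phospholipases A2 cut a fatty acid from the middle position of a membrane phospholipid, and when that fatty acid is arachidonic acid it becomes the substrate of several enzyme families. Cyclooxygenases, which APAP and IBU inhibit, turn it into prostaglandins. Lipoxygenases add oxygen to it instead, and the 5-lipoxygenase pathway, common in cells of the blood and immune system, leads to the leukotrienes: the helper protein FLAP, encoded by Alox5ap, presents arachidonic acid to 5-lipoxygenase, leukotriene A4 hydrolase makes leukotriene B4, and leukotriene C4 synthase joins leukotriene A4 to glutathione.

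The coding sequences at the active sites are shown for some of the members. In the cytosolic phospholipases of group IV and in the calcium-independent phospholipase Pla2g6, a serine between glycines attacks the phospholipid. The 45 bases around it were read from the coding strand of the GENCODE M21 transcripts on the GRCm38 assembly, and the capitals mark the 5 codons of the glycine-serine motif, whose serine is codon 228 in Pla2g4a, codon 342 in Pla2g4b and codon 520 in Pla2g6.

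Pla2g4a: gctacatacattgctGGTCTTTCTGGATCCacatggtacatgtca
Pla2g4b: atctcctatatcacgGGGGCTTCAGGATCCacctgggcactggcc
Pla2g6: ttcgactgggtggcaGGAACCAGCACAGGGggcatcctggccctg

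Pla2g4a and Pla2g4b shared 25 of these 45 bases, 11 of them in the 15 capitals. The windows were found by this motif, so part of the match in the capitals was set by the search. The lipoxygenases end in an isoleucine that binds the catalytic iron, and their last 45 coding bases are shown with that codon in capitals.

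Alox5: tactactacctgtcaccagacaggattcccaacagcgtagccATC
Alox12: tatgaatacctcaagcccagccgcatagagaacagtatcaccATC
Alox15: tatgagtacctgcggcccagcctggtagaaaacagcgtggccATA

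Over these 45 bases Alox12 and Alox15 shared 32, Alox5 and Alox15 shared 27, and Alox5 and Alox12 shared 25. Lta4h is a zinc enzyme of another family, and the capitals mark its zinc-binding motif, which starts with the histidine of codon 296.

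Lta4h: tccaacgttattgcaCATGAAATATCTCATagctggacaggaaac

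Total counts ran from 37811968 to 48954631 per library. Levels are CPM, counts scaled to a common library total with the TMM factors of edgeR. Of the markers of the labelled tissue, 8 germ cell genes, led by Dazl, Ddx4 and Mael, summed to 941 to 1183 CPM, and 8 pre-granulosa genes, led by Wnt4, Fst and Lgr5, to 466 to 716 CPM. The replicate 3 libraries of both groups stood apart. The sum of 14 liver markers, led by Afp, Alb and Apoa1, was 2023 CPM in that of the control group and 3291 CPM in that of the exposed group, while replicates 1 and 2 had 202 to 573 CPM. The 9 spermatid markers, led by Prm1, Prm2 and Ldhc, summed to 44.9 to 145 CPM in control and 3.60 to 8.83 CPM in APAP+IBU libraries. Because the replicate 3 libraries stood apart, fold changes of the 10 members are given with all 6 libraries, where tested, and with replicates 1 and 2 alone. Replicates 1 and 2 still differed between groups in other markers. Their spermatid sums were 145 and 46.1 CPM in control and 8.83 and 3.60 CPM in APAP+IBU. The sums of 11 erythroid markers, led by Hbb-y, Hbb-bs and Hbb-bt, were 7024 and 17115 CPM in control and 3178 and 5416 CPM in APAP+IBU.

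Lta4h had the highest level per exon length and Alox5 the lowest. Levels are CPM per kb of merged exon, averaged over the 6 libraries, since CPM alone cannot be compared between genes of different length. Lta4h averaged 15.2 CPM per kb ± 1.22 (SD, n = 6), more than 80.0% of all tested genes, and its lowest library was above the highest library of every other member. Pla2g4a followed at 9.03 ± 1.38 CPM per kb and Pla2g6 at 8.11 ± 1.39 CPM per kb, and these neighbours did not keep an order: Pla2g4a was the higher in 3 of 6 libraries. Pla2g12a, at 6.03 ± 1.01 CPM per kb, was below Pla2g6 in all 6 libraries.

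A gap of 4.55-fold separated the mean of Pla2g12a from that of Pla2g4b, the next gene, over merged exons. The gap depended on the length taken for Pla2g4b. All its counts, divided by only the exon bases that it shares with no other gene of its strand, give 3.96 CPM per kb. That value would hold only if no counted read lay in the shared bases, which is not known. Over merged exons Pla2g4b averaged 1.33 ± 0.590 CPM per kb and Alox5ap 1.06 ± 0.336 CPM per kb, with Pla2g4b the higher in 4 of 6 libraries. Alox12 stood at 0.717 ± 0.308 CPM per kb, below Alox5ap in all 6 libraries. Alox15 at 0.272 ± 0.0783 CPM per kb and Ltc4s at 0.271 ± 0.162 CPM per kb changed places, each the higher in 3 of 6 libraries. Alox5 closed the order at 0.213 ± 0.0942 CPM per kb, a level above only 9.49% of tested genes, though Ltc4s was the higher of the pair in only 4 of 6 libraries. The gene of the enzyme that makes leukotriene A4 thus had the lowest mean level, and the gene of the enzyme that hydrolyses it the highest. In bulk tissue a low level cannot separate few cells with much RNA from many cells with little.

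**Figure D1:**
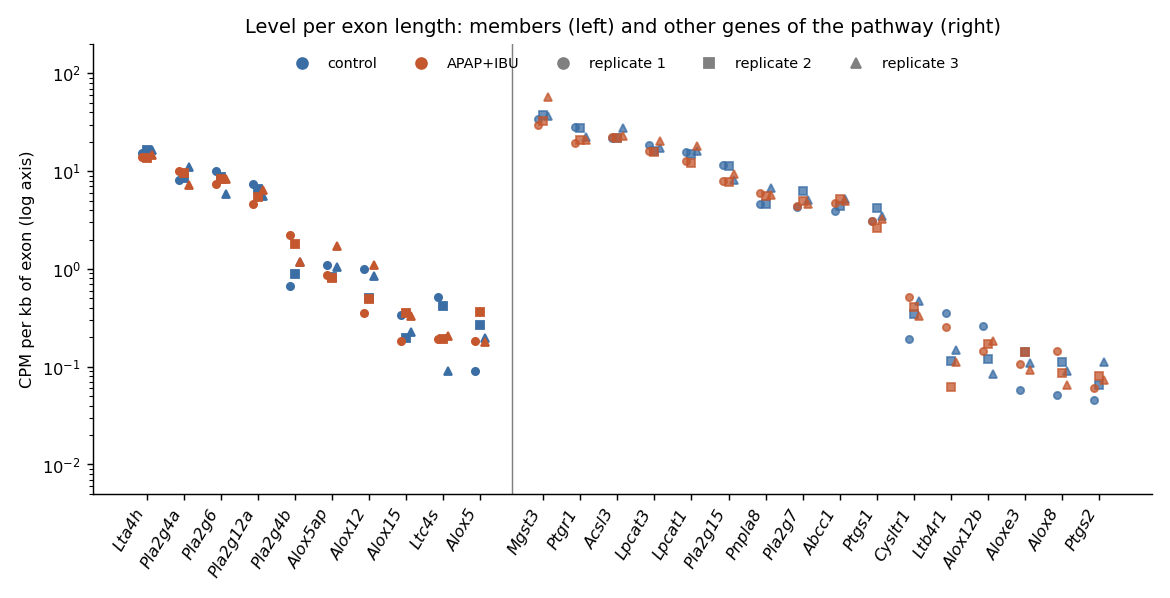
Level of each gene in CPM per kb of exon, on a log axis, with 1 point per library (blue control, orange APAP+IBU, shape the replicate), for the 10 members left of the line and other genes of the pathway right of it. Lta4h, Pla2g4a, Pla2g6 and Pla2g12a lie between 4.59 and 16.6 CPM per kb, and no point of the other 6 members lies above 2.24 CPM per kb.

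Across all 6 libraries, no member passed an adjusted p of 0.05 in edgeR (quasi-likelihood test, Benjamini-Hochberg over the 20167 tested genes), and neither did any other gene (0% of tested genes). DESeq2 called 0 members and 236 genes at this limit. The expression filter kept 9 of the 10 members, all but Ltc4s. At an unadjusted p under 0.05, 1 of these 9 members was reached, Pla2g4b, where 1254 of all tested genes (6.22%) were, 3% with a higher and 3.21% with a lower level. Of the 9, 4 had a higher and 5 a lower mean estimate in APAP+IBU ovaries, and their median log2 fold change of -0.030 compares with -0.00467 over all tested genes. The groups did not overlap for 1 member, Lta4h, where the same held for 10.7% of tested genes (4.78% higher and 5.92% lower in APAP+IBU). An exact permutation test of 3 against 3 libraries gives p = 0.1 at the least.

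**Figure D2:**
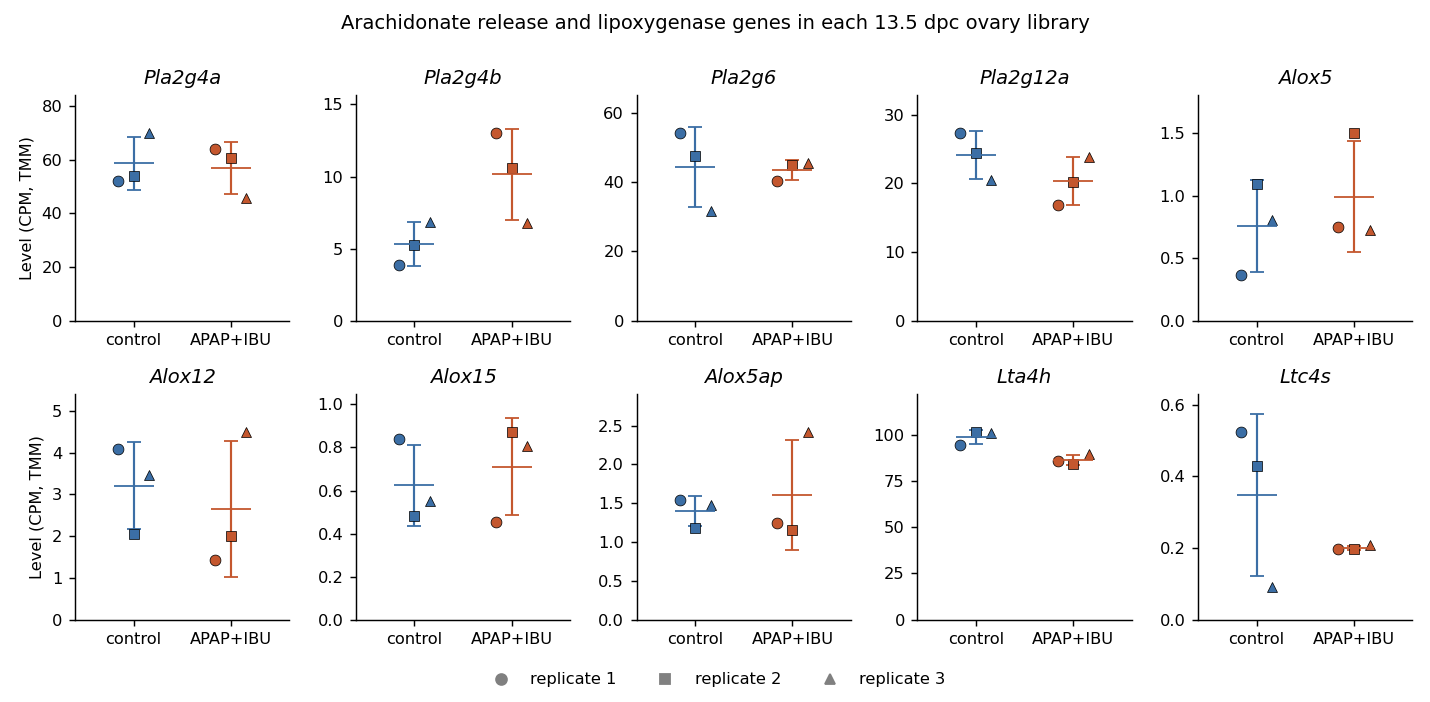
Level of the 10 members in CPM in each library, with 1 panel per gene and its own axis from 0; the long bar is the group mean and the whiskers the SD (n = 3). Lta4h is the only panel with every APAP+IBU library below every control library, and in the Pla2g4b panel APAP+IBU replicates 1 and 2 stand at 13.0 and 10.6 CPM above controls of 3.88 to 6.86 CPM.

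With replicates 1 and 2 of each group alone, all 10 members passed the filter and 2 were called at an adjusted p under 0.05 in edgeR, Pla2g4b higher and Pla2g12a lower. The call covered 27.2% of the 20633 genes tested there, 14.2% higher and 12.9% lower, so the members' 2 of 10 did not exceed the share over all genes. The groups of these 4 libraries did not overlap for 7 of the 10 members, where 68.8% of all tested genes showed the same. Genes rich in G and C were lower as a class in this comparison, from a median log2 fold change of 0.64 for genes of at most 40% GC to -0.54 for genes above 60%. After a correction for length and GC content, 13.9% of tested genes were called (5.67% of tested genes higher), and among them were 3 members: Pla2g4b, Pla2g12a and Lta4h.

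**Figure D3:**
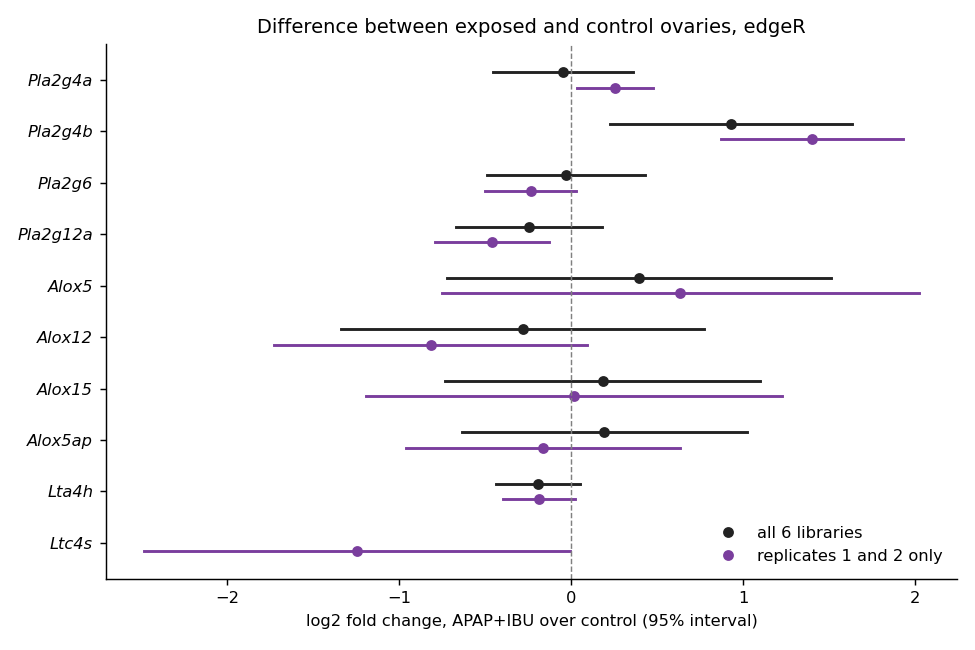
Log2 fold change of APAP+IBU over control for each member from edgeR, with 95% intervals, for all 6 libraries (black) and for replicates 1 and 2 (purple); Ltc4s has no value with all 6 libraries because it did not pass the filter. The interval of Pla2g4b lies above 0 in both fits, from 0.23 to 1.64 and from 0.87 to 1.93. Those of Pla2g6, Alox5, Alox12, Alox15, Alox5ap and Lta4h span 0 in both.

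Pla2g4b encodes the group IVB cytosolic phospholipase A2, a calcium-dependent relative of Pla2g4a, and lies on GRCm38 at chr2:120033417-120043030 on the plus strand. It measured 3.88, 5.22 and 6.86 CPM in control replicates 1, 2 and 3, and 13.0, 10.6 and 6.79 CPM in APAP+IBU replicates 1, 2 and 3. APAP+IBU replicates 1 and 2 were above every control, while replicate 3 fell just below the control of the same number, so the groups overlapped. The group means were 5.32 ± 1.49 and 10.1 ± 3.15 CPM (SD, n = 3), a 1.91-fold difference. Its log2 fold change was 0.93 (SE 0.31, edgeR unadjusted p = 0.0158, adjusted p = 0.692), and the exact two-sided permutation test gave p = 0.2. Without APAP+IBU replicate 1 the log2 fold change was 0.70 and the unadjusted p in edgeR 0.0688.

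With replicates 1 and 2 alone Pla2g4b rose 2.64-fold, from a mean of 4.55 to 11.8 CPM, with a log2 fold change of 1.40 (SE 0.23, edgeR adjusted p = 0.00778). At 56.0% GC it moved against its class, since genes of 55 to 60% GC had a median log2 fold change of -0.32 in these 4 libraries. With the length and GC correction its log2 fold change there was 1.50 (SE 0.23, edgeR adjusted p = 0.0109).

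The reads counted for Pla2g4b need not come from a transcript that makes the enzyme. In GENCODE M21, 1 of its 6 transcripts is protein coding and 5 retain an intron. Of its 5831 exon bases 3878 (66.5%) are also exons of Gm28042, a gene of the same strand annotated over Jmjd7 and Pla2g4b together, which received only 3 to 25 counts per library. Of the 1953 bases that Pla2g4b does not share, 1879 belong only to the transcripts with a retained intron and 74 to the protein coding one. A further overlap of 792 exon bases (13.6%) is with Sptbn5 on the opposite strand. The sources used here do not give how the counting treated strand or reads in shared exons, so the counts of Pla2g4b, Gm28042 and Sptbn5 are uncertain in their split.

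Genes beside Pla2g4b were looked at after its values had been seen. Of the 9 genes within 100000 bases, Pla2g4b and its overlapping genes included, Mga, a transcription factor of the MAX network, was at 121, 155 and 253 CPM in control and 294, 287 and 212 CPM in APAP+IBU replicates 1 to 3. Its pattern across libraries was that of Pla2g4b, with high APAP+IBU replicates 1 and 2 and a high control replicate 3. The pattern was not particular to this region. The germ cell marker Dazl also had it, at 368, 380 and 553 CPM in control and 587, 591 and 476 CPM in APAP+IBU replicates 1 to 3. Mga rose in replicates 1 and 2 alone by a log2 fold change of 1.10 (SE 0.13, edgeR adjusted p = 0.00623), and the scaffold gene Mapkbp1 by 0.57 (SE 0.11, edgeR adjusted p = 0.0113). Of all genes tested there, 27.2% were called, 14.2% higher. The GC class of Mga, which has 42.2% GC, had a median log2 fold change of 0.29 there, and that of Mapkbp1, at 53.8% GC, had -0.13. Sptbn5, annotated in GENCODE M21 as a processed transcript and not as protein coding, was at 6.11 to 7.16 CPM in control and 9.39 to 12.1 CPM in APAP+IBU libraries. Its groups did not overlap across all 6 libraries (log2 fold change 0.69, SE 0.19, edgeR unadjusted p = 0.00625, adjusted p = 0.536). The same held for 10.7% of tested genes. Jmjd7, the other gene that Gm28042 spans, had a log2 fold change of 0.23 (SE 0.30, edgeR adjusted p = 0.601) in replicates 1 and 2. Ehd4, which encodes an endocytic trafficking protein, had the opposite sign, with -0.14 (SE 0.12) with all 6 libraries and -0.18 (SE 0.11, edgeR adjusted p = 0.26) in replicates 1 and 2.

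Pla2g4a encodes the cytosolic phospholipase A2 that prefers arachidonic acid and supplies most of it for eicosanoids in many cells (chr1:149829618-149961290, minus strand). It measured 52.0, 53.8 and 70.0 CPM in control and 63.9, 60.8 and 45.8 CPM in APAP+IBU replicates 1 to 3. The highest library was control replicate 3 and the lowest APAP+IBU replicate 3, whereas in replicates 1 and 2 both exposed libraries were above both controls. With all 6 libraries the means of 58.6 ± 9.92 and 56.8 ± 9.65 CPM (SD, n = 3) differed by a log2 fold change of -0.045 (95% interval -0.45 to 0.36, edgeR adjusted p = 0.936). The fit to replicates 1 and 2 gave a log2 fold change of 0.26 (SE 0.09, edgeR adjusted p = 0.0836), beside a median of 0.29 for genes of its GC class of 40 to 45%. After the length and GC correction it was -0.056 (SE 0.091).

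Pla2g6 encodes a calcium-independent phospholipase A2 that takes part in membrane turnover (chr15:79286228-79328390, minus strand). It measured 54.3, 47.5 and 31.8 CPM in control and 40.3, 44.9 and 45.5 CPM in APAP+IBU replicates 1 to 3. Control replicate 3 was the lowest library, and the APAP+IBU values lay inside the control range. The log2 fold change was -0.030 (95% interval -0.49 to 0.43, edgeR adjusted p = 0.963) with all 6 libraries and -0.24 (SE 0.11, edgeR adjusted p = 0.16) in replicates 1 and 2, where genes of its GC class had a median of -0.32.

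Pla2g12a encodes a secreted phospholipase A2 of group XIIA (chr3:129878606-129895825, plus strand). It measured 27.4, 24.4 and 20.4 CPM in control and 16.9, 20.3 and 23.9 CPM in APAP+IBU replicates 1 to 3. As for Pla2g4b the replicate 3 libraries were out of step with the rest: APAP+IBU replicate 3 was above control replicate 3. With all 6 libraries the means were 24.1 ± 3.49 and 20.3 ± 3.48 CPM (SD, n = 3), with a log2 fold change of -0.24 (SE 0.18, edgeR adjusted p = 0.704). Pla2g12a fell in replicates 1 and 2 alone, from a mean of 25.9 to 18.6 CPM (log2 fold change -0.46, SE 0.14, edgeR adjusted p = 0.0484), while genes of its GC class had a median of 0.29. The correction for length and GC content gave -0.63 (SE 0.15, edgeR adjusted p = 0.0297) there.

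The lipoxygenase transcripts were scarce and varied widely between libraries. Alox5, which encodes the first enzyme of leukotriene synthesis (chr6:116410077-116461178, minus strand), measured 0.367, 1.10 and 0.806 CPM in control and 0.749, 1.51 and 0.728 CPM in APAP+IBU replicates 1 to 3, on 14 to 69 counts per library. Replicate 2 was the highest library in both groups. The log2 fold change was 0.39 with a 95% interval from -0.72 to 1.51 (edgeR adjusted p = 0.789), wide enough to hold changes of either direction. With replicates 1 and 2 it was 0.64 (SE 0.59, edgeR adjusted p = 0.453).

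Alox12, the 12-lipoxygenase of platelets, lies at chr11:70241457-70255353 on the minus strand, on the same chromosome and strand as Alox15 at chr11:70344152-70352031. Alox12 measured 4.09, 2.06 and 3.48 CPM in control and 1.44, 2.01 and 4.50 CPM in APAP+IBU replicates 1 to 3. The highest library was an exposed library and so were the lowest 2. With all 6 libraries the log2 fold change was -0.28 (SE 0.46, edgeR adjusted p = 0.837), and in replicates 1 and 2 it was -0.82 (SE 0.39, edgeR adjusted p = 0.158). Alox15, which makes mainly 12-lipoxygenase products in the mouse, measured 0.839, 0.482 and 0.552 CPM in control and 0.453, 0.873 and 0.806 CPM in APAP+IBU replicates 1 to 3, on 18 to 40 counts. Its libraries crossed between groups in no fixed order, with a log2 fold change of 0.18 (95% interval -0.74 to 1.10, edgeR adjusted p = 0.881) and of 0.018 (SE 0.51) in replicates 1 and 2.

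Markers of blood cells varied between the same libraries. The 9 markers of megakaryocytes and platelets, led by Itgb3, Itga2b and Pf4, were all detected and summed to 83.8, 62.8 and 75.3 CPM in control and 44.9, 49.8 and 83.8 CPM in APAP+IBU replicates 1 to 3. Alox12 put the libraries in the same order as this sum, except that the highest 2, APAP+IBU replicate 3 and control replicate 1, changed places. The order of this sum was not particular to platelet markers. Nanos3, a germ cell marker picked after its values had been seen, had the same order. It measured 3.56, 2.30 and 2.42 CPM in control and 1.75, 1.92 and 3.20 CPM in APAP+IBU replicates 1 to 3. The sum of the 8 germ cell markers had another order. Itgb3 alone averaged 43.9 CPM of the sum, and not every marker kept its order. Ppbp, for example, was highest in control replicate 2, at 8.16 CPM, and stood at 2.94 CPM in control replicate 1. Of the 9 markers, 6 had a lower estimate with all 6 libraries and 9 in replicates 1 and 2, where 2 were called lower in edgeR. The part of platelet RNA in the level of Alox12 was not tested.

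**Figure D4:**
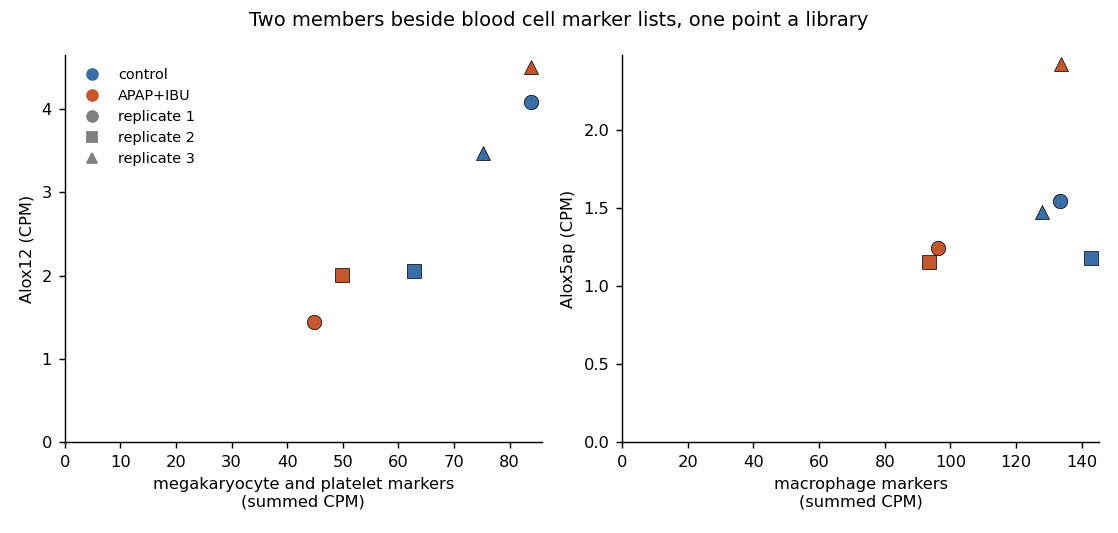
Level of Alox12 against the summed CPM of 9 megakaryocyte and platelet markers (left) and of Alox5ap against that of 12 macrophage markers (right), with 1 point per library and both axes from 0. The 3 libraries with platelet sums above 75 CPM have the 3 highest Alox12 values, 3.48 to 4.50 CPM, while the highest Alox5ap value, 2.42 CPM, is at a macrophage sum of 134 CPM that controls also reach.

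Alox5ap, the gene of FLAP (chr5:149264767-149288153, plus strand), measured 1.55, 1.18 and 1.47 CPM in control and 1.24, 1.16 and 2.42 CPM in APAP+IBU replicates 1 to 3. APAP+IBU replicate 3 stood above the other 5 libraries, which lay within 1.16 to 1.55 CPM. The log2 fold change was 0.19 (SE 0.36, edgeR adjusted p = 0.86) with all 6 libraries and -0.16 (SE 0.34, edgeR adjusted p = 0.752) in replicates 1 and 2. The 12 macrophage markers, led by Csf1r, Mrc1 and Cx3cr1, summed to 133, 143 and 128 CPM in control and 96.1, 93.6 and 134 CPM in APAP+IBU replicates 1 to 3. The 8 neutrophil markers, led by Mpo, S100a9 and Prtn3, summed to 12.5, 15.0 and 19.5 CPM in control and 7.21, 11.2 and 20.8 CPM in APAP+IBU replicates 1 to 3. The 6 mast cell markers, led by Cpa3, Cma1 and Tpsb2, summed to 2.59, 2.14 and 1.93 CPM in control and 1.28, 2.53 and 2.89 CPM in APAP+IBU replicates 1 to 3. APAP+IBU replicate 3 was the highest library for the neutrophil, mast cell and liver lists as it was for Alox5ap, and the part of any of these cell types in its level was not tested. An antisense gene, Gm19719, lies over 189 exon bases (13.3%) of Alox5ap.

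Lta4h, at chr10:93453411-93484875 on the plus strand, makes leukotriene B4 and is also an aminopeptidase, found in most cell types. It measured 94.5, 101 and 101 CPM in control and 85.5, 84.2 and 89.3 CPM in APAP+IBU replicates 1 to 3. All 3 exposed libraries were below all 3 controls, and the libraries within a group lay close together, with SDs of 3.78 CPM in control and 2.69 CPM in APAP+IBU. The means of 98.8 and 86.3 CPM differed by a log2 fold change of -0.20 (SE 0.11, edgeR unadjusted p = 0.103, adjusted p = 0.692), and the exact two-sided permutation test gave p = 0.1, the smallest it can give here. In replicates 1 and 2 the log2 fold change was -0.19 (SE 0.09, edgeR adjusted p = 0.163). Genes of its GC class had medians of 0.13 with all 6 libraries and 0.29 with replicates 1 and 2. The length and GC correction took Lta4h to -0.32 (SE 0.10, edgeR unadjusted p = 0.016, adjusted p = 0.512) with all 6 libraries and to -0.45 (SE 0.09, edgeR adjusted p = 0.016) with replicates 1 and 2.

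Among the marker lists, the sums of those of spermatids and of endothelium were also lower in every exposed library. The 7 endothelial markers, led by Kdr, Pecam1 and Cdh5, summed to 463 to 513 CPM in control and 390 to 440 CPM in APAP+IBU libraries. Of the 7, 6 had a lower estimate with all 6 libraries and 1, Cdh5, a higher one (log2 fold change 0.020, SE 0.11). Kdr, Pecam1 and Cdh5 each overlapped between the groups. The part of endothelial cells in the level of Lta4h was not tested.

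Ltc4s, at chr11:50236461-50238616 on the minus strand, received 20, 16 and 4 counts in control and 10, 9 and 8 counts in APAP+IBU replicates 1 to 3. These counts correspond to 0.524, 0.428 and 0.0921 CPM in control and 0.197, 0.196 and 0.208 CPM in APAP+IBU. The control libraries held both the highest values and the lowest one, and the exposed libraries lay between them. With replicates 1 and 2 alone the log2 fold change was -1.24 (SE 0.53, edgeR unadjusted p = 0.0494, adjusted p = 0.121), and it was -0.55 (SE 0.55) after the length and GC correction. Of its exon bases 268 (26.4%) lie under the antisense gene Gm26542.

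Other genes of the pathway were read from lists of 50 genes, of which 42 were tested with all 6 libraries. At an unadjusted p under 0.05, 1 of the 42 (2.38%) was reached, against 6.22% of all tested genes, and none had an adjusted p under 0.05. It was Ptgr1, which encodes prostaglandin reductase 1, an enzyme that inactivates leukotriene B4. Ptgr1 measured 65.2, 63.3 and 51.0 CPM in control and 45.02, 47.7 and 48.2 CPM in APAP+IBU replicates 1 to 3. The groups did not overlap, with a log2 fold change of -0.35 (SE 0.13, edgeR unadjusted p = 0.0313, adjusted p = 0.692). Without control replicate 1 or 2, or without APAP+IBU replicate 1 or 2, the number of pathway genes at this limit was 0. In replicates 1 and 2, 5 of 43 tested genes (11.6%) were called at an adjusted p under 0.05 in edgeR, 3 higher and 2 lower, against 27.2% of all tested genes. Ptgr1 was among them, with a log2 fold change of -0.45 (SE 0.093, edgeR adjusted p = 0.0146).

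The 17 other phospholipases A2 held 4 of these 5 calls. With 15 of them tested in replicates 1 and 2, these 4 of 15 did not exceed the 27.2% of all tested genes. Of the 15 tested with all 6 libraries 7 had a higher and 8 a lower estimate, with a median log2 fold change of -0.091. The highest levels per length were those of the lysosomal phospholipase Pla2g15 at 9.35 CPM per kb, the calcium-independent Pnpla8 at 5.54 CPM per kb and the platelet-activating factor hydrolase Pla2g7 at 4.95 CPM per kb. In replicates 1 and 2 Pla2g15 fell by a log2 fold change of -0.51 (SE 0.11, edgeR adjusted p = 0.0165) and Pnpla8 rose by 0.35 (SE 0.09, edgeR adjusted p = 0.0309), while Pla2g7 was at -0.14 (SE 0.21, edgeR adjusted p = 0.635). Pnpla8, at 39.1% GC, belongs to the class with a median of 0.64.

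The remaining calls were Pla2g4c and Pla2g4e, relatives of Pla2g4b in group IV. The genes of this group were singled out after their values had been seen. Pla2g4c measured 3.30, 3.75 and 6.19 CPM in control and 8.37, 6.59 and 5.31 CPM in APAP+IBU replicates 1 to 3. Pla2g4e measured 6.68, 7.33 and 7.41 CPM in control and 9.99, 12.0 and 6.87 CPM in APAP+IBU replicates 1 to 3. In both genes, as in Pla2g4b, APAP+IBU replicates 1 and 2 were above all controls and APAP+IBU replicate 3 was within the control range. Pla2g4c rose in replicates 1 and 2 by a log2 fold change of 1.11 (SE 0.23, edgeR adjusted p = 0.0146) and Pla2g4e by 0.67 (SE 0.18, edgeR adjusted p = 0.0345). Genes of the GC class of Pla2g4c, which has 43.4% GC, had a median log2 fold change of 0.29 there, and genes of the class of Pla2g4e, at 51.8% GC, had -0.13. With all 6 libraries their unadjusted p in edgeR was 0.0753 and 0.102. Pla2g4d, at 0.207 to 0.498 CPM, had a log2 fold change of 0.012 (SE 0.56) in replicates 1 and 2, and Pla2g4f, with 3 to 10 counts per library, was not tested.

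**Figure D5:**
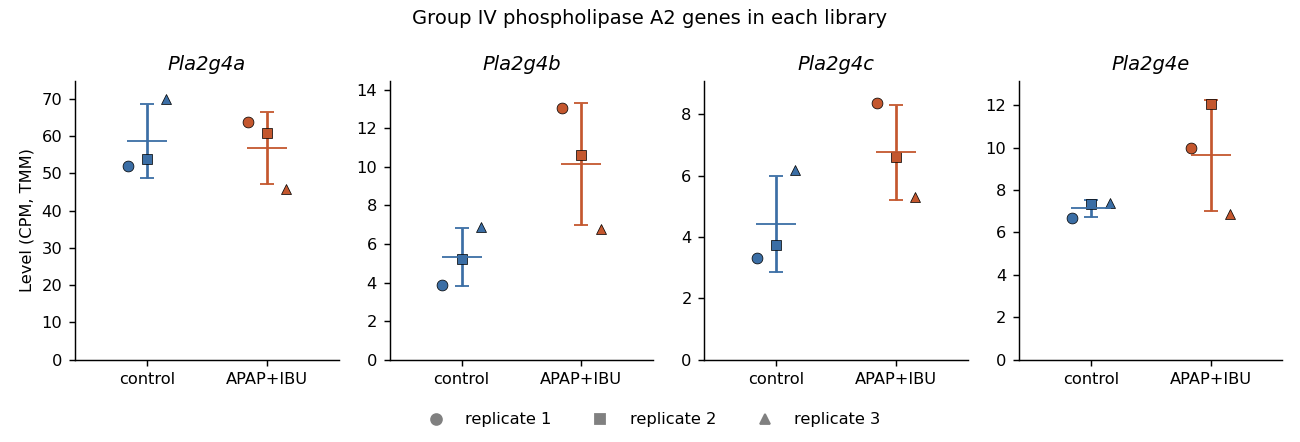
Level in CPM of 4 group IV phospholipase A2 genes in each library, with the group mean (long bar) and SD (whiskers, n = 3), each panel with its own axis from 0. In the Pla2g4b, Pla2g4c and Pla2g4e panels APAP+IBU replicates 1 and 2 lie above all controls and replicate 3 does not; in the Pla2g4a panel control replicate 3, at 70.0 CPM, is the highest library.

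The other lipoxygenases had lower mean levels per length than Alox12, Alox15 and Alox5. Of 4 genes 3 were tested, Alox12b at 0.161, Aloxe3 at 0.108 and Alox8 at 0.0917 CPM per kb, and none had an unadjusted p under 0.05 in edgeR with all 6 libraries or an adjusted p under 0.05 with replicates 1 and 2. Their log2 fold changes with all 6 libraries were 0.10 (SE 0.48) for Alox12b, an epidermal enzyme, 0.15 (SE 0.41) for Aloxe3 and 0.23 (SE 0.48) for Alox8. The fit to replicates 1 and 2 gave -0.24 (SE 0.55), 0.33 (SE 0.52) and 0.51 (SE 0.61) in the same order.

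Downstream of the members, 10 of 15 genes for leukotriene conversion, export and reception were tested, 5 with a higher and 5 with a lower estimate. The microsomal glutathione transferase Mgst3 had the highest level per length, 38.0 CPM per kb, ahead of Ptgr1 at 23.3 and the leukotriene exporter Abcc1 at 4.75 CPM per kb. Mgst3 was highest in APAP+IBU replicate 3, at 62.4 CPM against 32.3 to 41.0 CPM in the other libraries, and had a log2 fold change of 0.13 (SE 0.24) with all 6 libraries and -0.19 (SE 0.11, edgeR adjusted p = 0.247) with replicates 1 and 2. The cysteinyl leukotriene receptor Cysltr1 averaged 1.94 CPM on 38 to 135 counts per library, with a log2 fold change of 0.31 (SE 0.37) with all 6 libraries and 0.79 (SE 0.37, edgeR adjusted p = 0.152) with replicates 1 and 2. The leukotriene B4 receptor Ltb4r1 had 4 to 19 counts per library and was not tested with all 6 libraries. These receptors were picked by their role after their values had been seen.

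The 12 genes listed for joining fatty acids to coenzyme A and returning them to phospholipids were all tested. Of these, 4 had a higher and 8 a lower estimate, with a median log2 fold change of -0.098. None was called in replicates 1 and 2 either. Acsl3, which activates fatty acids with coenzyme A, stood at 23.1 CPM per kb, and the acyltransferases Lpcat3 and Lpcat1 at 17.4 and 15.0 CPM per kb. Their log2 fold changes were -0.10 (SE 0.13), 0.015 (SE 0.14) and -0.12 (SE 0.17) with all 6 libraries, and 0.011 (SE 0.085), -0.096 (SE 0.10) and -0.29 (SE 0.092) with replicates 1 and 2.

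Of the drug targets, Ptgs1 measured 12.1, 16.3 and 13.6 CPM in control and 12.1, 10.1 and 12.6 CPM in APAP+IBU replicates 1 to 3. The groups overlapped, with a log2 fold change of -0.27 (SE 0.18, edgeR unadjusted p = 0.177, adjusted p = 0.699). Ptgs2 measured 0.210, 0.294 and 0.506 CPM in control and 0.276, 0.371 and 0.338 CPM in APAP+IBU replicates 1 to 3 (log2 fold change -0.050, SE 0.45). With replicates 1 and 2 the log2 fold change was -0.33 (SE 0.20, edgeR adjusted p = 0.25) for Ptgs1 and 0.37 (SE 0.56, edgeR adjusted p = 0.653) for Ptgs2. Per kb of merged exon Ptgs1, at 3.29 CPM, lay between Pla2g12a and Pla2g4b. Its order with Pla2g4b is uncertain, since Pla2g4b would come to 3.96 CPM per kb if all its counts lay in its unshared bases. Ptgs2, at 0.0726 CPM per kb, had a lower mean than Alox5.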

How the data were processed

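Polyadenylated RNA of pooled 13.5 dpc ovaries was sequenced, with 3 pools for each of the groups control and APAP+IBU. Exposed samples carry only IBU in their titles but both drugs in their exposure label, which was used. The authors made stranded libraries, mapped the reads to mm10 with TopHat2 2.0.14 and Bowtie2 2.1.0, counted them per Ensembl gene with HTSeq 0.6.1 and deposited raw counts, without normalisation. The counting mode and strand setting are not given in the sources used here. From these counts, the edgeR quasi-likelihood test (version 4.0.16, R 4.3.3) was run after its expression filter and TMM scaling, adjusted over all 20167 tested genes (20633 with replicates 1 and 2). Levels are CPM with TMM normalisation. Symbols, exons, GC content, positions and sequences were taken from GENCODE M21, an annotation of GRCm38 (mm10) later than the Ensembl release 86 that the authors used. All 10 members matched 1 row each. The length and GC correction was a loess fit (span 0.3) in each library.

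The members, the lists, the markers and the fit to replicates 1 and 2 were chosen with earlier results of these data known. Named from each pathway list were the 3 tested genes with the highest CPM per kb and up to 3 with the smallest unadjusted p under 0.05, with Ptgs1 and Ptgs2, and from each marker list used up to 3 genes with the highest CPM. DESeq2 1.42.0, other normalisations and filters, the replicate number as a block and leaving out each library served as alternatives. Pairs of libraries of the same group differed by a chi-square per degree of freedom of 17.2 to 143, so none was counted as a duplicate. Tested on simulated counts with 200 genes changed by 2 on the log2 scale, edgeR recovered 70% of them with 3 libraries per group and 54% with 2, and 7.89% and 11.5% of its calls were unchanged genes. For DESeq2 26.3% and 33.5% of the calls were unchanged genes. Recovery of changes smaller than 2 was not tested. With 2 libraries per group edgeR made 122 calls in this test, where the fit to replicates 1 and 2 made 5607. The share of unchanged genes among those 5607 calls was not tested.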

Additional observations from a re-analysis of the deposited data

How the results depend on the processing

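Pla2g4b kept its direction in all 18 alternatives, with log2 fold changes from 0.66 to 1.496, as did Pla2g12a (-0.63 to -0.13) and Lta4h (-0.45 to -0.18). The number of genes at an adjusted p under 0.05, 0 in edgeR with all 6 libraries, was 236 in DESeq2 without shrinkage, 193 with its beta prior, 120 with all genes of at least 1 count, 5607 in replicates 1 and 2, 5727 there in DESeq2 and 2862 there with the length and GC correction. Leaving out each library gave 0 to 1064 genes, the highest without control replicate 3. The number of members at this limit, 0 with all 6 libraries and 0 to 0 when each library was left out, was 2 in replicates 1 and 2, 2 there in DESeq2 and 3 there with the correction. At an unadjusted p under 0.05, 1 member was reached with all 6 libraries, 0 to 2 when each library was left out (0 without APAP+IBU replicate 1, 2 without control replicate 3 or APAP+IBU replicate 3), 2 with the correction, 4 in replicates 1 and 2, 2 there in DESeq2 and 3 there with the correction. Members without overlap of the groups numbered 1, with 2 after the correction (Pla2g4a and Lta4h), 7 in replicates 1 and 2 and 1 to 5 when each library was left out (5 without control replicate 3, 4 without APAP+IBU replicate 3). The single pathway gene at an unadjusted p under 0.05 became 0 without control replicate 1 or 2 or APAP+IBU replicate 1 or 2, 5 without control replicate 3 and 6 without APAP+IBU replicate 3. It was 3 with the correction, 2 in DESeq2 with or without its beta prior, 2 with all genes of at least 1 count, and in replicates 1 and 2 it was 11, 10 in DESeq2 and 11 with the correction. The causes of these differences were not tested. Shares over all genes at an unadjusted p under 0.05 in edgeR were taken only with all 6 libraries (6.22%). For groups without overlap they were taken with all 6 libraries (10.7%) and with replicates 1 and 2 (68.8%). The other counts of members and pathway genes at these limits have no such share beside them and are not read as results.

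Deviations of same-numbered libraries correlated at -0.0695, -0.0151 and -0.044, and those of other pairs at -0.0457 to 0.0798. With 3 libraries per group these values cannot decide whether libraries of the same number belong together. The liver marker sums rose from replicate 1 to replicate 3 in both groups. With the replicate block 2 genes had an adjusted p under 0.05 and no member did, and with the block and the length and GC correction 34 genes had an adjusted p and 2 members an unadjusted p under 0.05. No pathway gene had an unadjusted p under 0.05 with the block, with or without the correction. The log2 fold change of Pla2g6 was 0.00219 with the block, 0.045 with the correction and 0.050 with both.

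Members with small changes turned direction. Pla2g4a was at 0.26 in replicates 1 and 2, at 0.25 there in DESeq2, and at 0.10 and 0.064 without control or APAP+IBU replicate 3 (range over left-out libraries -0.15 to 0.10). Pla2g6 was at 0.14, 0.018 and 0.015 without control replicate 1, control replicate 2 and APAP+IBU replicate 1 (range -0.22 to 0.14). Alox5ap was at -0.25 without APAP+IBU replicate 3 (range -0.25 to 0.38), at -0.16 in replicates 1 and 2 and at -0.17 there in DESeq2. Without APAP+IBU replicate 2, Alox5 was at -0.043 (range -0.043 to 0.75) and Alox15 at -0.00222 (range -0.00222 to 0.45), and without APAP+IBU replicate 1 Alox12 was at 0.012 (range -0.92 to 0.012). With the longest transcript in place of merged exons, Alox15 and Ltc4s changed places in the order of levels, and Lta4h stood at 28.7, Pla2g4a at 16.7 and Pla2g6 at 13.1 CPM per kb. With all its counts divided by only the bases not shared with Gm28042, an alternative added after seeing the data, Pla2g4b came to 3.96 CPM per kb. Ltc4s, with 4 to 20 counts per library, did not pass the filter with all 6 libraries.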
